A study of Arabidopsis thaliana with 24 samples.

Results

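The transcriptional response of wild-type Arabidopsis thaliana seedlings to N-linolenoylethanolamine (NAE 18:3) after 3 h was taken from 6 of the 24 libraries of a study of N-acylethanolamines and the heterotrimeric G protein. The 6 libraries are the wild-type (WT) libraries of the 3 h table, 3 from seedlings given 0.2% DMSO, the solvent control, and 3 from seedlings given 40 µM NAE 18:3. They were chosen by their labels alone and were described across all 20672 expressed loci. All were of the Col-0 ecotype, grown in liquid diluted Murashige and Skoog medium with 1% sucrose, treated in dishes at an age of 4 days and collected as whole seedlings. Each library therefore pools the organs of many seedlings. In such bulk samples fewer cells of a type and less RNA per cell cannot be told apart. The labels give DMSO for the control dishes only and do not say whether it was also in the NAE 18:3 dishes. The other 18 libraries are 1 h WT libraries and libraries of the agb1 mutant, whose allele is not named, under the same agents and times. Nothing in the labels says that replicates came from separate cultures, so p-values measure the spread between these samples, which may be technical.

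N-acylethanolamines are fatty acid amides of ethanolamine that are released from membrane phospholipids. NAE 18:3 carries linolenic acid, and it is either hydrolysed by fatty acid amide hydrolase (FAAH) or oxidised by lipoxygenases to oxylipins. These lipids decline as seeds germinate, and an excess of them arrests the growth of young seedlings. AGB1 is the gene for the Gβ protein of the heterotrimeric complex, which relays signals from the cell surface. The series' title asks whether this complex is needed for the effect of NAE 18:3 on chloroplast transcripts.

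The DMSO libraries held 25002805 to 25674264 counts and the NAE 18:3 libraries 19954891 to 25799623. Plastid-encoded loci took 0.0284 to 0.0526% of the counts under DMSO and 0.038 to 0.0661% with NAE 18:3, and ribosomal RNA 0.03 to 0.0618% and 0.0712 to 0.0933%. The TMM scaling factors were 1.01 to 1.07 under DMSO and 0.846 to 0.903 with NAE 18:3. Spearman's rho of each locus's deviation with exon length was 0.059 to 0.12 under DMSO and -0.2 to 0.0014 with NAE 18:3. The part of these library differences in the results was not tested, beyond the fit with the length trend removed and the other scalings given in the closing section. AGB1 was counted in every agb1 library, with 1128 to 1584 raw counts at 3 h against 1249 to 2438 in WT. The agb1 libraries at 3 h were deeper than the WT ones, with 35982747 to 51894994 counts in total. Relative to total counts, AGB1 was lower in every agb1 library at 3 h than in every WT library at 3 h. At 1 h the genotypes overlapped on that measure. Whether the genotype accounts for the lower level at 3 h was not tested. One library stood apart, WT DMSO at 1 h replicate 2, with 18001981 counts and 5.29% ribosomal RNA, and it enters only the fit of all 24 libraries.

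After 3 h of NAE 18:3, a majority of the expressed loci differed from the DMSO control. By the quasi-likelihood test of edgeR, 12094 of 20672 loci, 58.5%, passed an adjusted p under 0.05. Of these, 6079 rose (29.4% of the loci tested) and 6015 fell (29.1%). Counts of rises and falls in the gene groups below are to be read against these shares. "Rose" and "fell" are used only of loci that passed this test. Levels are CPM, the counts of a locus scaled to library size with TMM factors, not corrected for gene length, and changes are log2 fold changes of NAE 18:3 over DMSO. The median over all loci tested was -0.003. The median change of a called rise was 0.98 and of a called fall -0.95. At least 2-fold rises numbered 2971 (14.4%) and falls 2823 (13.7%). At least 4-fold, 1161 loci rose and 872 fell, and at least 16-fold 219 rose and 112 fell. In a test against a 2-fold change, 3393 loci (16.4%) passed, 1872 higher (9.06%) and 1521 lower (7.36%). The 3 libraries of one group did not overlap the 3 of the other at 12953 loci (62.7%). Genes named below as those of a list with the smallest p were likely to be separated by that choice alone. Their lack of overlap is a description and adds no support.

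The split between rises and falls depended on the scaling. With total counts and no scaling factor, the median over all loci shifted by -0.26 (log2), 4368 loci rose and 8439 fell. Changes are therefore given relative to TMM, and a gene group whose direction turned without scaling is named as such where it is described.

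**Figure D1:**
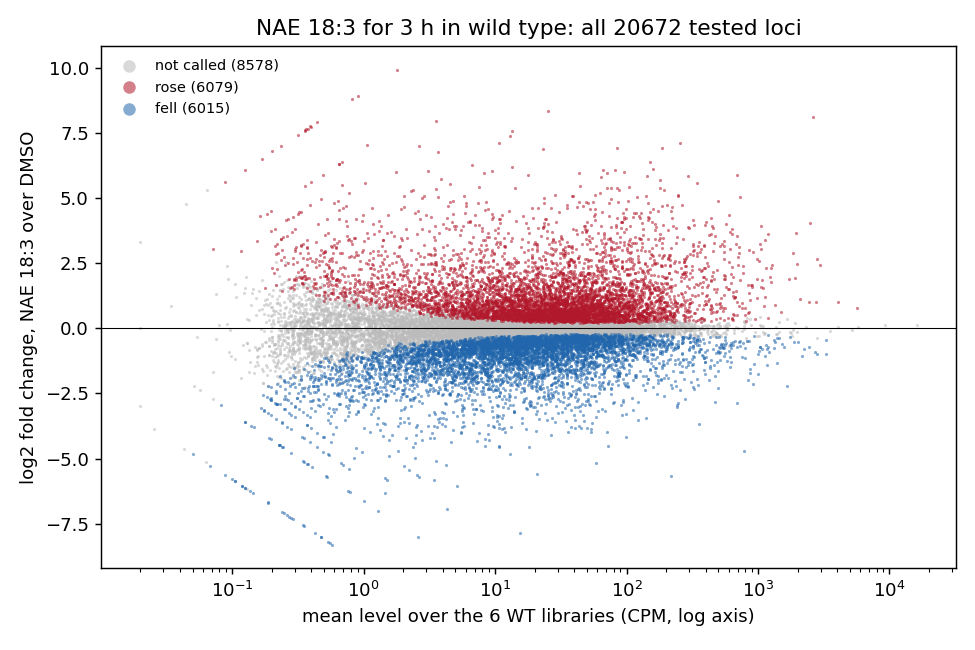
Each point is 1 of the 20672 tested loci, with its mean level over the 6 WT libraries at 3 h (CPM, log axis) against its log2 fold change of NAE 18:3 over DMSO. Called rises (6079) and falls (6015) are nearly equal in number, and the straight rows of points at the left edge are loci at or near 0 in 1 group, whose fitted fold depends on the prior count.

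Among called loci with a mean of at least 5 CPM and no overlap between the groups, the largest rises included a transporter, stress genes and calcium-binding proteins. ABCG40, a plasma membrane transporter that takes up abscisic acid, had 15.6, 16.2 and 25.2 CPM under DMSO and 5997, 5677 and 4075 CPM with NAE 18:3. It rose by 8.11 (SE 0.48, adjusted p = 2.35e-08), and its gain in mean CPM was also the largest among the loci without overlap. AOX1D, an alternative oxidase of the mitochondrial respiratory chain, had 1.89, 1.18 and 1.01 CPM under DMSO and 188, 171 and 143 CPM with NAE 18:3 (log2 fold change 6.93, SE 0.32). ERF71, an ethylene response factor linked to low oxygen, had 6.22, 2.47 and 1.97 CPM under DMSO and 291, 292 and 305 CPM with NAE 18:3 (log2 fold change 6.37, SE 0.39). The DMSO libraries of these 3 genes are low and the NAE 18:3 libraries high, a separation that the rule asked for. The EF-hand proteins AT1G76640 and AT3G01830, of a family that binds calcium, rose by 6.94 and 6.29. ACA2 (AT2G28210), here the alpha carbonic anhydrase 2, went from 3.27, 4.14 and 3.44 CPM to 511, 518 and 499 CPM and rose by 7.14 (SE 0.31).

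Some of the largest rises came from near absence. AT2G47950, annotated as a myelin transcription factor-like protein, had 5, 2 and 5 raw counts under DMSO and 1021, 864 and 1167 with NAE 18:3 (log2 fold change 8.34, SE 0.29, adjusted p = 2.58e-10). AT2G23110, a late embryogenesis abundant protein of group 6, had 4, 6 and 1 counts and then 467, 462 and 726 (log2 fold change 7.57, SE 0.29). AT4G37710, a protein with the VQ motif that binds WRKY factors, had 4, 2 and 6 counts and then 426, 394 and 469 (log2 fold change 7.10, SE 0.36). The folds of these loci rest on few DMSO counts. AT3G43250, AT4G34380, a WD40 repeat protein, and AT3G28600, a P-loop nucleoside triphosphate hydrolase, rose by 7.39, 6.88 and 6.18.

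By the same rule, the largest falls included cell wall, lipid and phenylpropanoid enzymes. 4CL3, a 4-coumarate:CoA ligase of flavonoid synthesis, had 122, 121 and 97.4 CPM under DMSO and 3.57, 2.79 and 3.01 CPM with NAE 18:3 (locus AT1G65060, log2 fold change -5.18, SE 0.19, adjusted p = 3.21e-10). XTH6, a xyloglucan-modifying cell wall enzyme, had 20.7, 28.1 and 26.6 CPM under DMSO and 1.00, 1.36 and 0.386 CPM with NAE 18:3 (log2 fold change -4.83, SE 0.38). AT1G29660, a GDSL-type lipase, had 125, 148 and 141 CPM under DMSO and 6.91, 6.10 and 4.89 CPM with NAE 18:3 (log2 fold change -4.53, SE 0.17). Each of these genes was low in every treated library, as the rule asked. AT1G60590, a pectin lyase-like protein, had 693, 680 and 1080 raw counts under DMSO and 7, 0 and 1 with NAE 18:3, a fitted log2 fold change of -7.85 (SE 0.69) that rests on 8 treated counts. BGLU34, a beta-glucosidase, had 425, 261 and 123 counts and then 2, 7 and 0 (log2 fold change -6.04, SE 0.72). AT2G10940, a lipid-transfer-type protein, had 1318, 1782 and 1435 CPM under DMSO and 59.0, 70.3 and 46.0 CPM with NAE 18:3 (log2 fold change -4.69, SE 0.31). The other large falls were the methyltransferase AT1G73600 (-5.68), the receptor-like kinase CRK30 (-5.61), the sterol desaturase CYP710A2 (-4.57), AT3G22550 (-4.54), the hydrolase AT5G41900 (-4.51) and GASA6, a gibberellin-regulated peptide (-4.51).

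**Figure D2:**
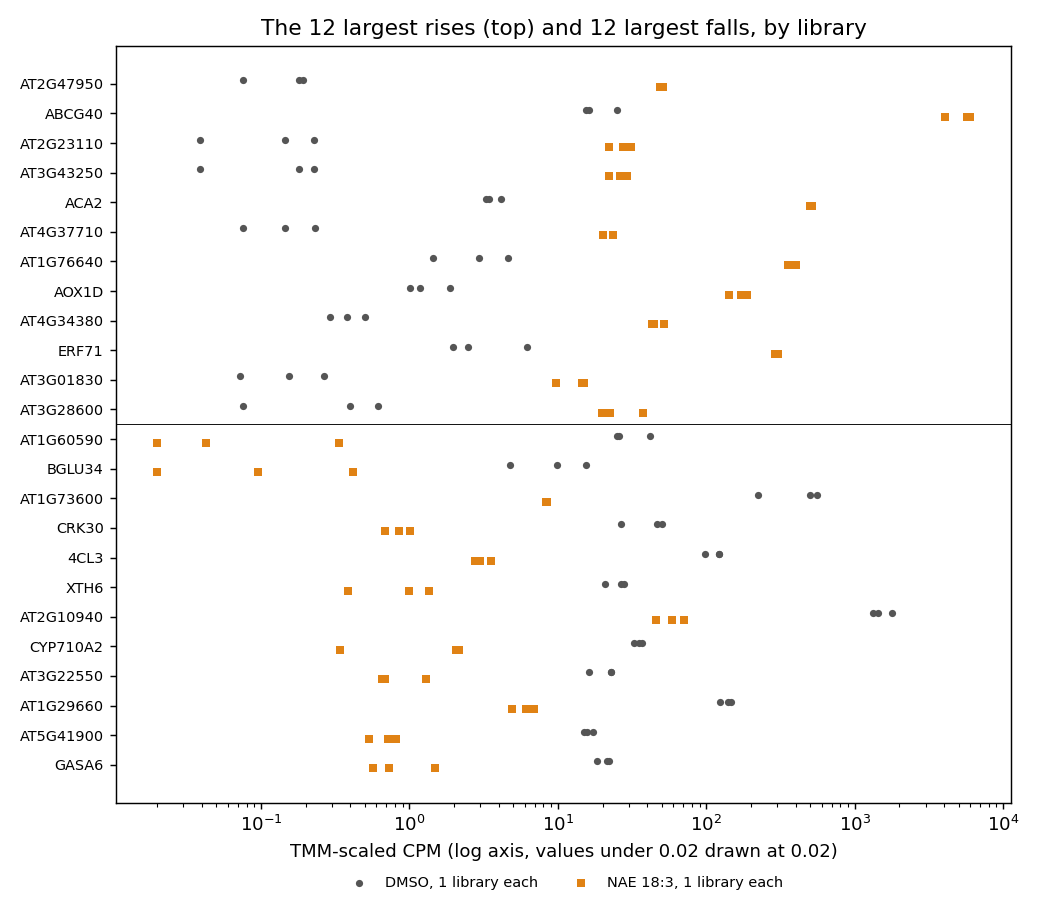
Each row is 1 gene and each mark 1 of the 6 WT libraries at 3 h, on a log axis of TMM-scaled CPM, with DMSO as circles and NAE 18:3 as squares; values under 0.02 are drawn at 0.02. The 12 largest rises stand above the line and the 12 largest falls under it, and the rule that chose them asked for groups that do not overlap.

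Measured in CPM rather than fold, the gains were led, after ABCG40, by chaperones and glutathione transferases and the losses by root, wall and plastid proteins. HSP90.1, a cytosolic chaperone, went from 285 ± 18.4 to 4712 ± 397 CPM (mean ± SD, n = 3 libraries a group), HSP70 from 284 ± 0.921 to 3634 ± 345 CPM, GSTF8 from 769.5 ± 223 to 4879 ± 170.0 CPM and GSTU19 from 931 ± 166 to 4990.2 ± 353 CPM. Among the losses, PYK10, a beta-glucosidase of endoplasmic reticulum bodies, went from 4388 ± 284 to 2246 ± 460.3 CPM (log2 fold change -0.97). GER3, a germin-like wall protein, went from 2728 ± 107 to 591 ± 41.2 CPM (-2.21). The plastid genes CA1, a carbonic anhydrase, and RBCS2B, a small subunit of Rubisco, fell by 0.97 and 0.89, and the methionine synthase ATMS1 by 1.05.

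Heat shock proteins hold damaged proteins in solution or refold them, and their genes are bound at heat shock elements by heat shock factors. In the seedlings given NAE 18:3, 14 of 14 small heat shock protein genes rose, with a median log2 fold change of 5.35, against 29.4% and -0.003 of all loci. AT5G51440, a mitochondrial member, had 44.3, 41.0 and 41.9 CPM under DMSO and 1375, 1357 and 1520.2 CPM with NAE 18:3 (log2 fold change 5.06, SE 0.11, adjusted p = 7.46e-12). AT2G29500, a cytosolic class I member, had 24.1, 21.6 and 24.1 CPM under DMSO and 1232, 1304 and 1559 CPM with NAE 18:3 (log2 fold change 5.87, SE 0.15), and the peroxisomal AT5G37670 had 3.93, 2.74 and 3.13 CPM under DMSO and 94.8, 88.5 and 103 CPM with NAE 18:3 (log2 fold change 4.87, SE 0.16). No control library reached a treated one at these 3 genes, which were chosen from the list by the smallest p. HSP17.4 was at 0 in all 3 DMSO libraries. Against a floor of 3 counts over the group it was at least 43.6-fold higher (log2 5.45), and the list's median was 5.35 with that bound too. The other members ranged from 3.97 for HSP18.2 to 6.12 for HSP23.6-MITO. Class I small heat shock genes are close copies of each other, so reads may have been split between them.

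The larger chaperones and their partners moved the same way, with 18 of 18 higher and a median of 3.73. CLPB4, a mitochondrial disaggregase, had 41.3, 38.3 and 32.4 CPM under DMSO and 577, 579.7 and 494 CPM with NAE 18:3 (locus AT2G25140, log2 fold change 3.88, SE 0.13, adjusted p = 1.97e-10), and HSP90.1 had 299, 264 and 292 CPM under DMSO and 4717, 5108 and 4313 CPM with NAE 18:3 (log2 fold change 4.05, SE 0.14). GolS1, which makes galactinol, the first step to raffinose sugars, had 17.0, 11.98 and 15.3 CPM under DMSO and 388, 407 and 385 CPM with NAE 18:3 (log2 fold change 4.74, SE 0.15). These 3 genes, also chosen by the smallest p, were separated between the groups in every library. The disaggregase HSP101 (4.36), the co-chaperone BAG6 (4.87) and the coactivator MBF1C (3.93) rose further than the constitutive HSC70-1 (1.02), mitochondrial HSP60 (1.09) and the plastid disaggregase CLPB3 (0.51).

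Of the heat shock factors, which switch these genes on, 13 of 18 tested rose and 1 fell (median 1.26). HSFA2, the factor that sustains the heat shock response, had 11.50, 8.71 and 10.9 CPM under DMSO and 177, 170.4 and 178 CPM with NAE 18:3 (locus AT2G26150, log2 fold change 4.08, SE 0.18, adjusted p = 1.09e-09). HSF A4A had 14.0, 13.6 and 13.7 CPM under DMSO and 181, 177 and 172 CPM with NAE 18:3 (log2 fold change 3.68) and the repressor type HSFB2A had 13.1, 11.1 and 12.9 CPM under DMSO and 130.5, 127 and 151 CPM with NAE 18:3 (log2 fold change 3.46). The factors that start the response in the textbook account, of class A1, moved less: HSFA1D rose by 0.40, HSFA1E by 0.81, HSF3 fell by 0.38 and HSF1 was not called (0.16).

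The windows before 2 small heat shock genes show where the heat shock element (GAA and TTC with any 2 bases between them, searched on both strands) stood in this gene group. Sequences are the 250 bases before the annotated start in RefSeq's TAIR10.1, read 5′ to 3′ along the gene's strand, with the element in capitals. AT1G53540 lies on the plus strand (window chr1:19980049-19980298), with its element beginning 53 bases before the start. AT1G52560 lies on the minus strand (window chr1:19575867-19576116), with its element 48 bases before the start.
AT1G53540: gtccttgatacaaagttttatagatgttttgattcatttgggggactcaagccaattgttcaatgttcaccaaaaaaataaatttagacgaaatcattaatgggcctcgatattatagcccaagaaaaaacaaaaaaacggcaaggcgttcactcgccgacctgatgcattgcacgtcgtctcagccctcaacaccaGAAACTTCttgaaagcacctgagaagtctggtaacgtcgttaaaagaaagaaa
AT1G52560: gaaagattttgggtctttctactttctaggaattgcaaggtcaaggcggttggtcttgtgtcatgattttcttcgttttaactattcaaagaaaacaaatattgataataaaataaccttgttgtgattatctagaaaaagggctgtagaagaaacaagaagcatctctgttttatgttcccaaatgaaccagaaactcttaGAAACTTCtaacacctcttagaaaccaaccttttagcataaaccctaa
These genes had 13.7, 9.89 and 4.64 CPM under DMSO and 307, 417 and 399 CPM with NAE 18:3 for AT1G53540 (log2 fold change 5.31) and 6.15, 3.92 and 1.74 CPM under DMSO and 152, 174 and 171 CPM with NAE 18:3 for AT1G52560 (log2 fold change 5.39). In windows from 250 bases before to 50 after the start, 35.7% of the small heat shock genes held the element, against 11.6% of 27443 promoters. The share was 28% in the 100 largest rises and 12% in the 100 largest falls. Of the other lists, salicylic acid and systemic defence (40%) and galactolipid and phosphate starvation (38.5%) had higher shares and the rest lower ones. The galactolipid list fell at 8 of 13 genes, so a high share was not particular to heat shock genes or to rises. Another motif that was searched, named site II, stood in 78.6% of the small heat shock windows, against 15.5% of all promoters. A match is a description of the letters and does not show binding.

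In the unfolded protein response of the endoplasmic reticulum, 9 of 20 rose and 5 fell (70% called, against 58.5% of all loci). The median of this response was 0.18 and turned to -0.07 without scaling. Its sensors and factors were among the rises: BZIP60 had 52.9, 42.5 and 53.0 CPM under DMSO and 321, 311 and 331 CPM with NAE 18:3 (locus AT1G42990, log2 fold change 2.70, SE 0.14, adjusted p = 4.14e-09), BZIP28 rose by 1.63 and IRE1A by 1.21. TIN1 rose by 3.31, the co-chaperone ATERDJ3A by 3.36 and the inducible BIP3 by 2.94. The abundant folding helpers went the other way: SHD, the HSP90 of this compartment, fell by 0.95, and the calreticulins CRT1a and CRT1b by 0.71 and 0.58. Of the 26S proteasome, 18 of 39 subunits rose and 1 fell, a shallow shift with a median of 0.22, which turned to -0.03 without scaling (8 higher and 10 lower). RPN13, a ubiquitin receptor, rose by 0.68, ATS9 by 0.93 and PAF1 by 0.85. Autophagy genes moved further: 16 of 20 rose and 0 fell (median 0.64, and 10 higher and 0 lower without scaling). ATG8E, which coats the autophagosome, had 23.1, 15.4 and 26.04 CPM under DMSO and 95.3, 112 and 93.2 CPM with NAE 18:3 (log2 fold change 2.22), AtATG18a rose by 1.18 and APG8A by 0.95.

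Genes that the nucleus switches on when mitochondria are impaired rose together. This mitochondrial retrograde list had 10 of 10 higher, with a median of 2.98. AT2G21640, a widely used marker of oxidative stress, had 4.80, 2.78 and 3.10 CPM under DMSO and 140.0, 153 and 156 CPM with NAE 18:3 (log2 fold change 5.39, SE 0.21, adjusted p = 4.97e-10). NAC13, a membrane-bound factor that activates such genes, had 39.0, 25.1 and 29.1 CPM under DMSO and 489, 465 and 391 CPM with NAE 18:3 (log2 fold change 3.85, SE 0.21). Every treated library exceeded every control library at both genes, which were chosen by small p. The alternative oxidase AOX1A rose by 3.31, the external NADH dehydrogenase NDB2 by 2.11, the dicarboxylate carrier DIC2 by 2.15, the ATPase BCS1 by 3.15 and NAC017, the relative of NAC13, by 0.57.

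Of the 10 genes 3 held the NAC core (CTTG and CAAG with any 5 bases between them, both strands), which NAC factors of this pathway bind: 30% of the list against 0.904% of all promoters, 6% of the 100 largest rises and 0% of the 100 largest falls. Of these, 2 are shown with the core in capitals, both on the plus strand of TAIR10.1. The AT2G21640 window is chr2:9254128-9254377, with the core 51 bases before the start, and the NDB2 window is chr4:2572177-2572426, with the core 79 bases before it.
AT2G21640: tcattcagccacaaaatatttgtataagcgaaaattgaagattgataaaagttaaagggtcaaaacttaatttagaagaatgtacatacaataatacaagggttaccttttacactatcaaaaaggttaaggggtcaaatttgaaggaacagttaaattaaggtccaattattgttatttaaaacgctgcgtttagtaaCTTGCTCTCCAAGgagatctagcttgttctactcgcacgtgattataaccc
NDB2: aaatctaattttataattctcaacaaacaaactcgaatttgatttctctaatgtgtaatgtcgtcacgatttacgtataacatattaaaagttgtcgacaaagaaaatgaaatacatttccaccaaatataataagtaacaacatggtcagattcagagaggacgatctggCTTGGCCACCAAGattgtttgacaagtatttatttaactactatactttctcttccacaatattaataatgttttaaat
NDB2 had 49.3, 40.1 and 42.1 CPM under DMSO and 197, 208 and 164 CPM with NAE 18:3, without overlap between the groups. The share of the core rests on 3 of 10 promoters. The genes were listed as members of this pathway, so a high share may come with that choice. A match to the core is a description of the letters and does not show binding.

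Of the antioxidant and reactive oxygen genes, 14 of 23 rose and 5 fell (median 0.84). The kinase AGC2-1, known as OXI1, had 23.2, 16.7 and 17.0 CPM under DMSO and 319, 318 and 290.5 CPM with NAE 18:3 (locus AT3G25250, log2 fold change 4.02, SE 0.19, adjusted p = 1.69e-09). The zinc finger factor ZAT7 had 3.82, 3.23 and 7.16 CPM under DMSO and 173, 214 and 228 CPM with NAE 18:3 (log2 fold change 5.44) and RHL41, known as ZAT12, had 23.58, 21.9 and 20.3 CPM under DMSO and 365, 439.5 and 449.9 CPM with NAE 18:3 (log2 fold change 4.25). All 3 regulators, chosen by the smallest p, were separated between the groups. The NADPH oxidase RBOHD rose by 1.83, ascorbate peroxidase APX1 by 0.91 and APX2 by 3.00. In the other direction, the catalases CAT2 (AT4G35090) and CAT3 (AT1G20620) fell by 1.30 and 1.42, and the iron-storing ferritins FER1, FER3 and FER4 by 1.32, 1.72 and 0.86. The copper superoxide dismutases CSD1 (0.16) and CSD2 (0.23) were not called.

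Tau glutathione transferases, which couple glutathione to reactive compounds, had 14 of 25 higher and 3 lower (median 1.88). GSTU5 had 128, 116 and 119 CPM under DMSO and 595, 569.7 and 618 CPM with NAE 18:3 (log2 fold change 2.297), and GSTU3 and GSTU4 rose by 5.88 and 5.07. Of the phi class, 8 of 12 rose and 3 fell: GSTF8 and GSTF7 rose by 2.66 and 2.33, and GSTF12, which carries anthocyanins to the vacuole, fell by 3.32. Of 50 UDP-glycosyltransferases 23 rose and 15 fell. Among ABCG transporters falls were more frequent, 18 of 37 against 6 rises. The exporters of cutin and wax ABCG11, ABCG32 and ABCG12 fell by 2.27, 2.32 and 2.09, opposite to ABCG40.

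Jasmonates are oxylipins made from linolenic acid, the acyl chain of NAE 18:3, by lipoxygenase, allene oxide synthase, allene oxide cyclase and later steps. Of the genes of their synthesis and turnover, 12 of 20 rose and 3 fell (median 1.51). The cyclase AOC1 had 84.1, 60.8 and 74.3 CPM under DMSO and 577, 506 and 616 CPM with NAE 18:3 (locus AT3G25760, log2 fold change 2.95, SE 0.14, adjusted p = 2.14e-09) and AOC2 had 673, 539 and 614 CPM under DMSO and 3401, 3285 and 3382 CPM with NAE 18:3 (log2 fold change 2.46). AT5G05600, a jasmonate oxidase that inactivates the hormone, had 132, 95.3 and 99.6 CPM under DMSO and 1301, 1301 and 1233 CPM with NAE 18:3 (log2 fold change 3.55). These genes of synthesis and breakdown, chosen by the smallest p, were higher in every treated library than in any control. LOX3 and LOX4 rose by 1.69 and 3.08, OPR3 by 1.79 and AOS by 1.53, while LOX2 was not called (0.39) and JAR1, which forms the active conjugate, fell by 0.36. In jasmonate signalling 12 of 19 rose and 2 fell. The repressors JAZ10, JAZ6 and JAZ5 rose by 2.54, 1.73 and 2.65, and the activator MYC4 fell by 1.71.

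Of 11 genes of abscisic acid synthesis and breakdown 9 rose and 1 fell (median 1.72). NCED3, the limiting enzyme of synthesis, had 8.99, 7.87 and 21.7 CPM under DMSO and 171, 151 and 88.5 CPM with NAE 18:3 (log2 fold change 3.41). The hydroxylases that break the hormone down, CYP707A3, CYP707A1 and CYP707A4, rose by 2.12, 1.72 and 3.46, and CYP707A2 fell by 2.04. Of the clade A PP2C phosphatases, which block abscisic acid signalling, 6 of 7 rose and 1 fell. ABI2 had 8.30, 7.03 and 10.99 CPM under DMSO and 72.4, 71.8 and 75.3 CPM with NAE 18:3 (log2 fold change 3.06), HAI2 rose by 4.58 and ABI1 by 1.01. Of 9 receptors 2 rose and 2 fell (44.4% called, against 58.5% of all loci). Of 17 downstream drought and cold response genes 6 rose and 4 fell, near the shares over all loci (29.4% and 29.1%), with a median of 0.10 that turned to -0.15 without scaling. NAC3 (AT3G15500), RD26 and ABI5 rose by 3.32, 3.06 and 1.88, and LTI78, KIN1 and COR15A fell by 1.16, 1.31 and 1.36.

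Of 45 ERF and DREB factors 35 rose and 1, RAP2.7 (-0.96), fell (median 1.67). ERF-1 had 46.0, 35.7 and 36.1 CPM under DMSO and 413, 443 and 487 CPM with NAE 18:3 (locus AT4G17500, log2 fold change 3.51, SE 0.17, adjusted p = 2.41e-09), and ERF5, ERF2 and DREB2A rose by 2.66, 3.01 and 3.85. Among ethylene synthesis and signalling genes 12 of 22 rose and 4 fell: the synthases ACS7 and ACS6 rose by 3.67 and 1.80 and EBF2, which marks EIN3 for breakdown, by 1.63. GH3 enzymes, which conjugate auxin, were divided, with GH3.3 (5.09) and WES1 (2.203) higher and GH3.9 (-3.30) lower. In the brassinosteroid list 8 of 12 were lower and 1 higher (median -0.69), with the synthesis enzyme CPD down by 1.31 and the growth factors BEE2 and BEE3 by 2.65 and 5.10. Salicylic acid and systemic defence genes rose at 9 of 14 and fell at 1, with CBP60G, WRKY70 and NPR1 higher by 1.72, 2.34 and 1.03, while the salicylate synthase EDS16 was not called (0.32).

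WRKY factors, regulators of defence, had 39 of 66 higher and 13 lower (median 0.90). WRKY22 had 6.55, 4.94 and 5.80 CPM under DMSO and 151, 174 and 172 CPM with NAE 18:3 (locus AT4G01250, log2 fold change 4.84, SE 0.21, adjusted p = 9.31e-10), and WRKY33 and WRKY25 rose by 2.88 and 3.41. NAC factors had 37 of 78 higher and 9 lower. Of 92 MYB factors 27 rose and 31 fell, close to the shares over all loci (29.4% and 29.1%), and 25 rose and 23 fell of 72 at a mean of at least 1 CPM. Within that family the flavonoid repressors MYB4 and MYB7 rose by 2.22 and 2.60, and the glucosinolate regulator MYB34 fell by 1.71.

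Pattern-triggered immunity, by which plants recognise microbial and damage signals at the cell surface, was represented by 18 genes, of which 14 rose and 1 fell (median 1.35). The receptor-associated kinase BIK1 had 34.9, 36.8 and 34.3 CPM under DMSO and 174, 183.2 and 158 CPM with NAE 18:3 (locus AT2G39660, log2 fold change 2.28, SE 0.16, adjusted p = 6.65e-08). The kinase MPK3 had 68.8, 62.4 and 77.1 CPM under DMSO and 208, 205 and 197 CPM with NAE 18:3 (log2 fold change 1.55), and the Pep receptor PEPR1 had 40.4, 40.5 and 39.7 CPM under DMSO and 115, 111 and 93.3 CPM with NAE 18:3 (log2 fold change 1.40). These signalling genes, chosen by the smallest p, did not overlap between the groups. The Pep precursors PROPEP1, PROPEP2 and PROPEP3 rose by 2.64, 3.13 and 2.73, and the camalexin enzyme PAD3 by 3.08. The flagellin receptor FLS2 (AT5G46330, 0.38) and the marker FRK1 (0.45) were not called, and CYP79B2, at the head of indole glucosinolate and camalexin synthesis, fell by 1.16.

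The W-box, TTGACC or TTGACT on either strand, is bound by WRKY factors. It was present in 66.7% of these genes' windows, against 32.4% of all promoters, 43% of the 100 largest rises and 23% of the 100 largest falls. The window of BIK1, on the plus strand at chr2:16531277-16531526 of TAIR10.1, is shown with its W-box in capitals, 40 bases before the start.
BIK1: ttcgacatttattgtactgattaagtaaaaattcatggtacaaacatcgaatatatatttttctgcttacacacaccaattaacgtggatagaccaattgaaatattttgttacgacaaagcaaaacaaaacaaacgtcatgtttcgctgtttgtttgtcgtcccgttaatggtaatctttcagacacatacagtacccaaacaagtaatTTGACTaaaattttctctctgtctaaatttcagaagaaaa
Of the other lists, the mitochondrial retrograde list had a higher W-box share (70%). Cysteine-rich receptor-like kinases (61.9%), GH3 enzymes (60%) and nitrate and ammonium uptake (58.3%) came close. The last of these fell at 4 of 7 tested genes, so a high share was not particular to immunity genes or to rises. A W-box match is common in plant promoters and is given as a description only.

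Of the calmodulin-like proteins, calcium sensors, 9 of 13 rose and 0 fell (median 1.98). CML37 had 14.3, 10.8 and 7.58 CPM under DMSO and 189, 225 and 222 CPM with NAE 18:3 (log2 fold change 4.28) and CML38 had 13.1, 10.3 and 10.95 CPM under DMSO and 216, 261 and 259.9 CPM with NAE 18:3 (log2 fold change 4.43), and the touch gene TCH3 rose by 2.31. Plant U-box ligases had 14 of 22 higher and 1 lower, led by PUB23 (3.33) and PUB24 (3.81), which dampen immune signalling, and PUB14 (1.56). Of 38 cysteine-rich receptor-like kinases 17 rose and 10 fell (71.1% called, against 58.5% of all loci). CRK28 (2.28) was higher and CRK42 (-2.95) and CRK30 (-5.61) were lower.

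Nuclear photosynthesis genes were lower or not called. No member of the antenna list rose and 10 of 19 fell (median -0.33), against 29.1% of all loci. LHCB2.1, an antenna protein of photosystem II, had 233, 299 and 314 CPM under DMSO and 63.3, 63.9 and 68.6 CPM with NAE 18:3 (locus AT2G05100, log2 fold change -2.11, SE 0.15, adjusted p = 5.71e-08). LHCB2.2 had 233, 305 and 330.0 CPM under DMSO and 72.5, 76.9 and 76.8 CPM with NAE 18:3 (log2 fold change -1.94) and LHCB2.3 had 28.0, 34.5 and 34.6 CPM under DMSO and 5.10, 4.03 and 4.68 CPM with NAE 18:3 (log2 fold change -2.81). LHCB2.3 had the lowest value of the list. The groups did not overlap at these 3 genes, which were chosen by the smallest p. Their closely similar coding sequences may share reads. The abundant CAB1 had 7174, 9254 and 10129.6 CPM under DMSO and 9061, 10026 and 10024 CPM with NAE 18:3 and was not called (log2 fold change 0.13), nor were LHCA1 (0.14) and LHB1B1 (0.17). In the photosystem and electron transport list 0 rose and 18 of 34 fell (median -0.46), with PSB28, PSAH2 and the ATP synthase subunit ATPD lower by 0.92, 0.79 and 0.95. Without scaling, 15 antenna and 26 photosystem genes fell and none rose.

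In the Calvin cycle 14 of 20 fell and 0 rose (median -0.55). The aldolase FBA1 had 565, 818 and 827 CPM under DMSO and 194, 229.9 and 196 CPM with NAE 18:3 (log2 fold change -1.83), phosphoribulokinase PRK had 1225, 1295 and 1529.9 CPM under DMSO and 549, 568 and 469 CPM with NAE 18:3 (log2 fold change -1.35), and the Rubisco subunit RBCS1B fell by 1.495. Its relative RBCS1A had 13641, 15189 and 17112 CPM under DMSO and 14769.9, 18604 and 17416 CPM with NAE 18:3 and was not called. Photorespiration, which recycles the product of Rubisco's oxygenase reaction, fell at 7 of 10 genes with none higher (median -1.03). Both glycine decarboxylase P proteins, GLDP1 (-2.14) and GLDP2 (-2.08), and the hydroxypyruvate reductase HPR (-1.74) were lower.

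Chlorophyll synthesis fell at 13 of 22 genes and rose at 2 (median -0.48). The protochlorophyllide reductase POR C had 101, 114 and 108 CPM under DMSO and 41.3, 38.9 and 40.4 CPM with NAE 18:3 (locus AT1G03630, log2 fold change -1.43, SE 0.11, adjusted p = 1.67e-07) and the vinyl reductase PCB2 fell by 1.01. HEMA2, the second gene for the entry enzyme glutamyl-tRNA reductase, went against the list with 63.3, 60.5 and 61.9 CPM under DMSO and 319, 352 and 321 CPM with NAE 18:3 (log2 fold change 2.42). Chlorophyll breakdown and senescence genes went up, 10 of 18 with 0 lower (median 0.95), including SAG21 (2.95), SAG101 (1.37) and the pheophytinase PPH (1.11). Of the greening and light regulators 13 of 17 fell and 2 rose (median -0.68). GPRI1, known as GLK1, which switches on antenna and chlorophyll genes, had 148, 169 and 156 CPM under DMSO and 49.4, 53.7 and 54.0 CPM with NAE 18:3 (locus AT2G20570, log2 fold change -1.59, SE 0.10, adjusted p = 2.7e-08). GLK2 fell by 1.85, and the plastid sigma factors SIGF and SIG2 by 1.14 and 1.195, while SIGE (1.01) and HYH (1.03) rose.

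Plastid ribosomal proteins showed 2 rises and 3 falls among 28 (median -0.06), and 0 rises and 15 falls without scaling (median -0.31). Of the 2386 loci annotated as located in chloroplast or thylakoid, 1022 fell and 467 rose (median -0.22), and 1390 fell and 307 rose without scaling. Plastid-encoded loci, poorly caught by poly(A) selection, rose at 16 of 85 (18.8%, against 29.4% of all loci) and fell at 0.

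Of 11 genes of N-acylethanolamine and oxylipin metabolism 4 rose and 3 fell, near the shares over all loci (29.4% and 29.1%). Their median was -0.15, and 0.00 without WT NAE replicate 3. FAAH, which hydrolyses N-acylethanolamines, had 54.7, 56.4 and 63.4 CPM under DMSO and 61.2, 55.5 and 50.9 CPM with NAE 18:3 and was not called (locus AT5G64440, log2 fold change -0.06, SE 0.09, adjusted p = 0.608). LOX1, a 9-lipoxygenase that can oxidise them, had 358, 360.5 and 350.4 CPM under DMSO and 88.9, 86.4 and 64.3 CPM with NAE 18:3 (locus AT1G55020, log2 fold change -2.16, SE 0.15, adjusted p = 5.51e-08). DOX1, an alpha-dioxygenase, had 751, 851 and 862 CPM under DMSO and 182, 188 and 128 CPM with NAE 18:3 (log2 fold change -2.31). So FAAH overlapped between the groups, and both oxidising enzymes were lower in every treated library. The hydroperoxide lyase HPL1 fell by 2.04. Of the phospholipases D, PLDGAMMA1 rose by 1.34, PLDDELTA by 0.57 and PLDBETA1 by 0.37, and PLDALPHA1 was not called (-0.15).

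In fatty acid synthesis and desaturation 9 of 17 fell and 2 rose (median -0.39), with the plastid enzymes KAS III, SSI2 and FAB1 lower by 0.90, 0.90 and 0.61. In peroxisomal beta-oxidation, which degrades fatty acids, 9 of 13 rose and 2 fell. The acyl-CoA oxidase ACX1 had 181, 186 and 234 CPM under DMSO and 654, 660.1 and 574 CPM with NAE 18:3 (log2 fold change 1.65), ACX2 rose by 1.73 and the thiolase KAT5 fell by 3.07. Galactolipid and phosphate starvation genes fell at 8 of 13 and rose at 3: the sulfolipid enzymes SQD1 and SQD2 fell by 1.34 and 1.80 and MGDC, a galactolipid synthase induced by low phosphate, by 3.77, while DGD2 rose by 1.27. The cuticle and suberin list fell at 12 of 16 with 1 higher (median -1.57). GPAT4, a cutin acyltransferase, had 195, 207 and 238 CPM under DMSO and 27.6, 34.2 and 28.6 CPM with NAE 18:3 (locus AT1G01610, log2 fold change -2.82, SE 0.14, adjusted p = 2.48e-09), and CER3, of wax alkane synthesis, and LACS2, a cutin acyl-CoA synthetase, fell by 1.76 and 2.89.

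In DNA replication and mitosis 11 of 18 fell and 1 rose (median -0.78), and the helicase subunits MCM2, MCM3 and MCM6 were lower by 1.48, 1.54 and 1.54. MCM2 had 24.4, 29.6 and 20.2 CPM under DMSO and 9.05, 7.59 and 9.87 CPM with NAE 18:3 and did not overlap between the groups. Cyclins fell at 14 of 28 and rose at 3. Expansins, which loosen cell walls, fell at 8 of 15 and rose at 2, and EXPA6 had 57.8, 71.1 and 64.3 CPM under DMSO and 11.9, 10.07 and 11.1 CPM with NAE 18:3 (log2 fold change -2.55). Aquaporins fell at 15 of 25 and rose at 2 (median -0.73), with the tonoplast channels DELTA-TIP and TIP2 down by 1.84 and 1.99 and the plasma membrane channel PIP1;4 by 1.42. Cellulose synthases and relatives fell at 13 of 26 and rose at 5. Of 30 xyloglucan enzymes of the XTH family 11 rose and 12 fell (76.7% called, against 58.5% of all loci). Their median was 0.04, and -0.21 without scaling. XTH7 (-3.27) and XTH32 (-2.90) fell and XTR6 (2.82) rose.

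Flavonoids, the pigments and screens made from phenylalanine, had the lowest median of the lists drawn, -2.78, with 11 of 12 lower and none higher. Chalcone synthase, TT4, had 579, 789.7 and 631 CPM under DMSO and 40.3, 64.9 and 49.8 CPM with NAE 18:3 (locus AT5G13930, log2 fold change -3.69, SE 0.19, adjusted p = 2.87e-09). The flavonol synthase FLS1 had 188, 206 and 167 CPM under DMSO and 9.24, 10.7 and 11.3 CPM with NAE 18:3 (log2 fold change -4.17, SE 0.13) and the glucosyltransferase UGT78D2 had 55.8, 61.0 and 55.9 CPM under DMSO and 12.3, 14.2 and 13.6 CPM with NAE 18:3 (log2 fold change -2.11). No treated library reached a control library at these genes, which were chosen by the smallest p. The flavonol regulators MYB12 and MYB111 fell by 3.71 and 2.94. A G-box, CACGTG, which reads the same on both strands and which bHLH and bZIP factors such as HY5 bind, stood in 50% of the list's windows, 7.68% of all promoters, 20% of the 100 largest rises and 9% of the 100 largest falls. In the TT4 window (plus strand, chr5:4488226-4488475 of TAIR10.1) it lies 233 bases before the start and is in capitals.
TT4: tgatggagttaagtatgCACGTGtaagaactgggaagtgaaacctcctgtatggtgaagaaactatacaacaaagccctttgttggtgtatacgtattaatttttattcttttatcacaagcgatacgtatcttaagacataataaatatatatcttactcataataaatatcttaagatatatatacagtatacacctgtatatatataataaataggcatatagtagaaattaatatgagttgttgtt
Seed storage markers (60%) and circadian clock genes (56.2%) had higher G-box shares, so a high share was not particular to flavonoid genes. The match shows the letters only. General phenylpropanoid genes were less one-sided, with 7 lower and 2 higher of 17, and PAL1 not called (0.14).

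Glucosinolates are the sulfur-rich defence compounds of cabbage relatives. Of 17 genes of their synthesis 13 fell and 3 rose (median -1.28). MYB28, which drives the aliphatic branch, had 123, 141 and 108 CPM under DMSO and 15.0, 17.1 and 8.80 CPM with NAE 18:3 (locus AT5G61420, log2 fold change -3.19, SE 0.22, adjusted p = 7.83e-08), and its partner MYB29 and target CYP79F1 fell by 4.32 and 2.88. MYB51, a regulator of the indole branch, rose by 1.21 together with CYP79B3 (0.79) and CYP83B1 (0.55), whereas MYB34, of the same branch, fell by 1.71.

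The starch list fell at 10 of 16 and rose at 3, with DPE2 and the plastid amylase CT-BMY lower by 1.43 and 1.02. These counts include BCAT-2 (AT1G10070), an amino acid transaminase that is not a starch gene. Among trehalose phosphate synthases TPS5 fell by 2.77 and TPS11 and TPS8 rose by 3.27 and 1.77. The nitrate transporter NRT1.1 had 447, 422 and 343 CPM under DMSO and 129, 139 and 115 CPM with NAE 18:3 (log2 fold change -1.66). Of 16 clock genes 9 rose and 3 fell, and the rises included BOA (2.11), PRR7 (0.80) and PCL1 (0.57).

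**Figure D3:**
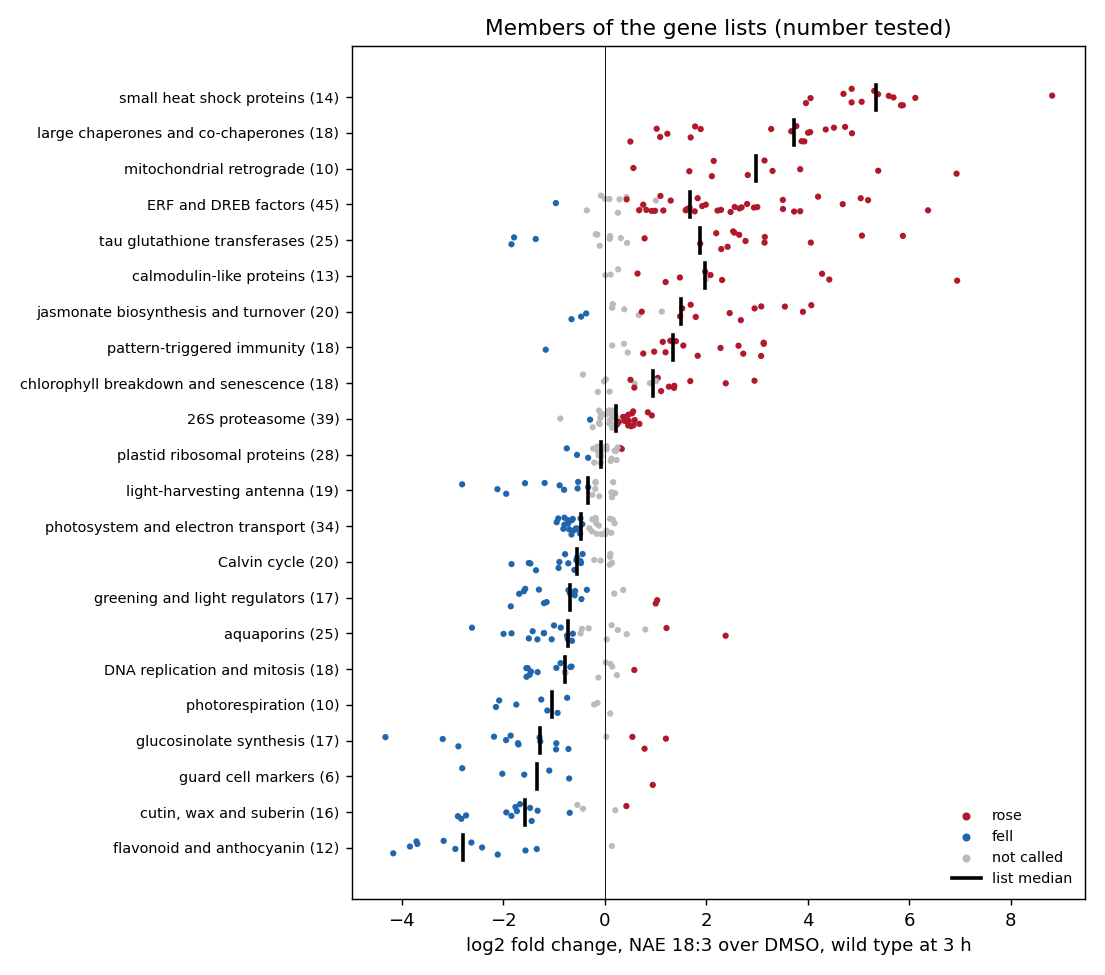
Each point is a tested member of the gene list in its row (number tested in brackets), placed by its log2 fold change in WT at 3 h and coloured by whether it rose, fell or was not called; bars are list medians. Medians run from 5.35 for small heat shock proteins to -2.78 for the flavonoid list, and the point of a small heat shock gene above 8 is HSP17.4, at 0 under DMSO, whose fitted value is no bound.

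Of 9 heterotrimeric G protein genes 7 rose and 2 fell (median 1.04). The alpha subunit gene GP ALPHA 1, known as GPA1, had 100.5, 80.4 and 101 CPM under DMSO and 274, 275 and 256 CPM with NAE 18:3 (locus AT2G26300, log2 fold change 1.52, SE 0.12, adjusted p = 1.3e-07). AGB1 had 47.3, 47.9 and 48.3 CPM under DMSO and 93.8, 112 and 105 CPM with NAE 18:3 (locus AT4G34460, log2 fold change 1.11, SE 0.12, adjusted p = 2.59e-06). RGS1, the regulator that speeds the return to the inactive state, rose by 1.01, the gamma subunits GG1 and AGG2 by 1.37 and 1.00, and the extra-large alpha proteins XLG2 and XLG3 by 1.32 and 1.04. Treated and control libraries were apart for GPA1 and AGB1. AGG3 and XLG1 fell by 0.79 and 0.31. In agb1 the rises were smaller: GPA1 changed by 0.66, a difference to WT of -0.85 (SE 0.16, adjusted p = 0.0158), and AGB1 by 0.36, a difference of -0.75 (SE 0.17, adjusted p = 0.0289). Neither difference held without every library: that of GPA1 was -0.70 without WT DMSO replicate 2 (adjusted p = 0.0712) and -0.83 and -0.82 without agb1 NAE replicates 1 and 2 (0.0576 and 0.0572). That of AGB1 was -0.54 to -0.74 without 1 of 8 libraries, WT DMSO 1 or 2, WT NAE 2 or 3, agb1 DMSO 1 or 3 or agb1 NAE 1 or 2, with adjusted p of 0.051 to 0.12.

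Markers of cell types moved in part with the treatment. Guard cell markers fell at 5 of 6 and rose at 1. Their summed level was 103 to 121 CPM under DMSO and 55.3 to 92.2 CPM with NAE 18:3, with MYB60 (-2.02) and FMA (-1.58) lower and KAT1 (0.95) higher. Root markers rose at 3 and fell at 2 of 15, with sums of 229 to 246 CPM and 193 to 244 CPM, and a median of 0.19 that turned to -0.06 without scaling and to -0.12 without WT DMSO replicate 3. WOX5, of the root's organising centre, had 1.71, 1.98 and 1.01 CPM under DMSO and 29.4, 22.7 and 40.4 CPM with NAE 18:3 (locus AT3G11260, log2 fold change 4.297, SE 0.30, adjusted p = 7.88e-08), without overlap, while SCR fell by 1.05. Of 10 seed storage genes 4 passed the filter on low counts and 1 fell, with sums of 1.74 to 1.89 CPM under DMSO and 1.07 to 1.33 CPM with NAE 18:3. The part of shifts between cell types in the other lists was not tested.

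At 1 h the WT response was smaller, and this comparison asks what the later time added. In a fit of all 24 libraries, 2774 of 21700 loci (12.8%) were called at 1 h, 1638 higher (7.55%) and 1136 lower (5.24%), and 13638 (62.8%) at 3 h. The change of the effect from 1 h to 3 h was itself called at 10422 loci (48%), 5474 with a more positive effect at 3 h and 4948 with a more negative one. Of the loci that rose at 1 h, 1333 were also called as rising at 3 h and 98 as falling. The 1333 loci were 81.4% of the rises at 1 h and 19.7% of those at 3 h. Of the loci that fell at 1 h, 689 fell and 92 rose at 3 h, and the 689 were 60.7% of the falls at 1 h and 10% of those at 3 h. Median log2 fold changes were 0.45 at 1 h and 5.35 at 3 h for small heat shock genes, and 0.06 and 2.98 for the mitochondrial list. AT2G29500 changed by 0.57 at 1 h and 5.87 at 3 h (difference 5.31, adjusted p = 4.63e-13), and AOX1A by 0.08 and 3.30 (difference 3.23, adjusted p = 3.78e-07). The immunity list had medians of 0.63 at 1 h and 1.35 at 3 h.

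The photosynthesis lists had medians at 1 h of -0.18 for the antenna, -0.01 for the Calvin cycle and -0.00 for photorespiration. LHCB2.1 changed by -0.23 at 1 h and -2.11 at 3 h (difference -1.89, adjusted p = 2.43e-06). The galactolipid and phosphate starvation list changed sign in its median: 8 of 13 members rose at 1 h, with a median of 0.88, against a median of -0.70 at 3 h. MGDC changed by 2.12 at 1 h and -3.78 at 3 h (difference -5.90, adjusted p = 6.48e-06), and SQD2 by 1.00 and -1.81 (difference -2.80, adjusted p = 3.67e-09). The 1 h effects rest in part on WT DMSO replicate 2, the library that stood apart, and without it 9751 loci were called for the change.

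**Figure D4:**
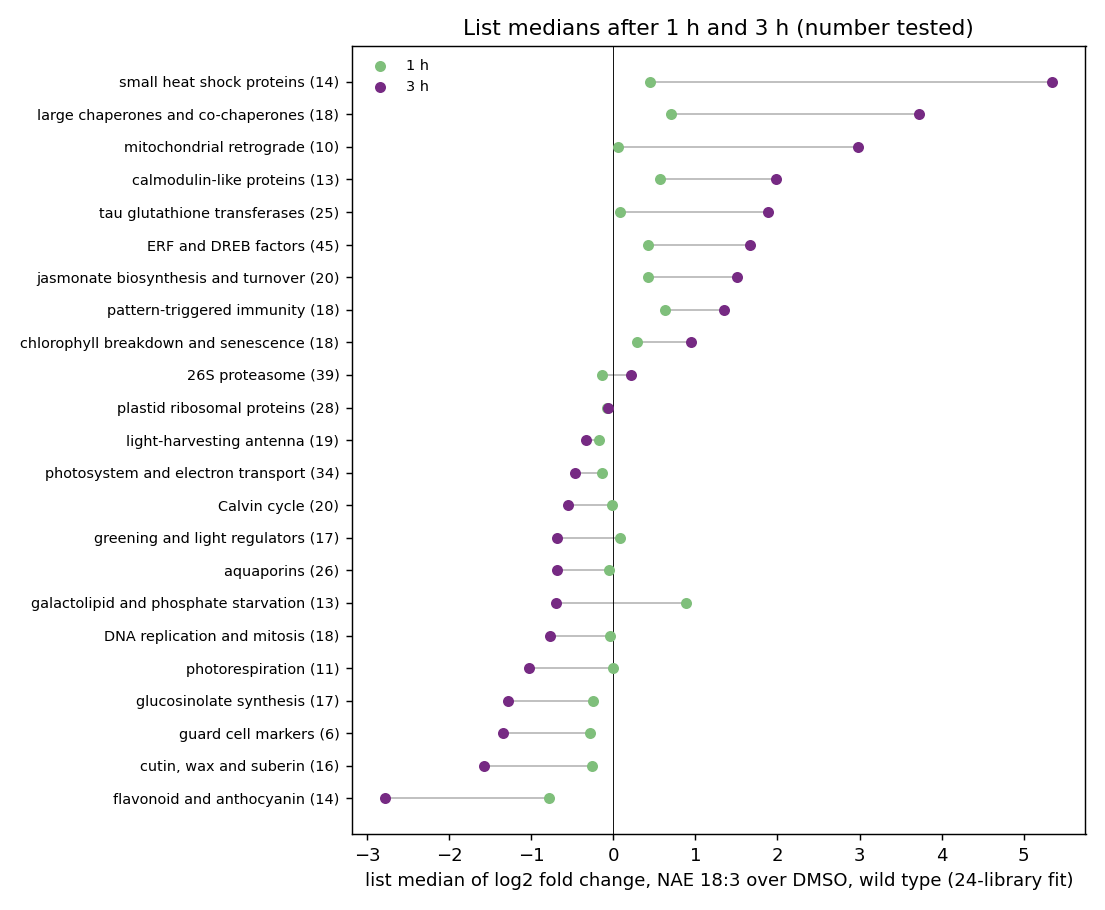
Each row joins the median log2 fold change of a gene list at 1 h and at 3 h in WT, from the fit of all 24 libraries (number tested in brackets). The small heat shock median goes from 0.45 to 5.35 and the flavonoid median from -0.78 to -2.78, while the galactolipid and phosphate starvation median goes from 0.88 to -0.70.

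The agb1 mutant, given the same agents, asks whether the response depends on the G protein beta subunit. In agb1, 10442 loci (50.5%) were called at 3 h, 5073 higher and 5369 lower. The difference between the effects, agb1 minus WT, was called at 613 loci (2.97%), 272 higher (1.32%) and 341 lower (1.65%). At 552 of them the difference had the opposite sign to the WT effect. The sizes of the effects were not compared in that count, which takes in any loci that moved the other way in agb1. At an unadjusted p under 0.05 a difference was found at 3969 loci. The agb1 NAE 18:3 libraries held 0.126 to 0.257% ribosomal RNA against 0.0712 to 0.0933% in WT, and the part of this in the difference was not tested. The split between higher and lower turned with the setting: 295 and 279 with RLE size factors, 318 and 279 with total counts, 315 and 205 without WT DMSO replicate 1, and 330 and 214 without agb1 DMSO replicate 1. The count of differences moved with single libraries. It was 189 without agb1 NAE replicate 1, 198 without WT DMSO replicate 2, 199 without agb1 NAE replicate 2, 335 without WT NAE replicate 2, 396 without WT NAE replicate 1 and 1394 without agb1 DMSO replicate 2.

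Among the chaperone genes the effect was called lower in agb1 at 9 of 14 small heat shock genes, whose median was 3.43 in agb1 against 5.35 in WT. It was lower at 12 of 18 larger chaperones, with medians of 2.05 and 3.73, against 1.65% of all loci called lower. AT1G07400 rose by 5.60 in WT and 2.85 in agb1 (difference -2.74, SE 0.28, adjusted p = 0.00061). HSP90.1 went from 654 ± 88.6 to 3295 ± 249 CPM in agb1, against 285 ± 18.4 to 4712 ± 397 CPM in WT, a rise in agb1 of 2.33 (difference -1.72, SE 0.18, adjusted p = 0.00061). The mitochondrial retrograde list gave no called difference at any of its 10 genes, with medians of 2.43 in agb1 and 2.98 in WT, and AOX1D differed by 0.82 (SE 0.47, adjusted p = 0.372). Over all loci 2.97% were called, so none among 10 is near that share and does not set this list apart.

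In the antenna list the effect was called higher in agb1 at 7 of 19 genes, against 1.32% of all loci, and the median in agb1 was 0.03. LHCB2.1 went from 136 ± 2.18 to 85.3 ± 17.0 CPM in agb1, against 282 ± 43.1 to 65.3 ± 2.91 CPM in WT, a log2 fold change of -0.67 (difference 1.44, SE 0.20, adjusted p = 0.00387). At both HSP90.1 and LHCB2.1 the agb1 control level thus lay on the treated side of the WT control level. In the photosystem list no difference was called, although its median was -0.16 in agb1 and -0.46 in WT. In the immunity list the effect was called lower in agb1 at 5 of 18, among them PROPEP3 (0.18 against 2.73, difference -2.55, adjusted p = 0.0262). PROPEP3 lost this call without WT DMSO replicate 2 (-2.42, adjusted p = 0.0777), WT NAE replicate 2 (-2.38, 0.0623), or agb1 NAE replicate 1 (-2.39, 0.0824) or 2 (-2.50, 0.0777). HPL1, at low levels, went opposite ways, from 0.452 ± 0.189 to 1.12 ± 0.258 CPM in agb1 (1.31) and from 12.02 ± 0.899 to 2.92 ± 0.245 CPM in WT (-2.04; difference 3.35, SE 0.37, adjusted p = 0.000838). Flavonoid, glucosinolate and jasmonate synthesis lists held no gene called for a difference. With 2.97% of all loci called, lists of this size can be expected to hold few or none, and the same holds for the photosystem list.

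**Figure D5:**
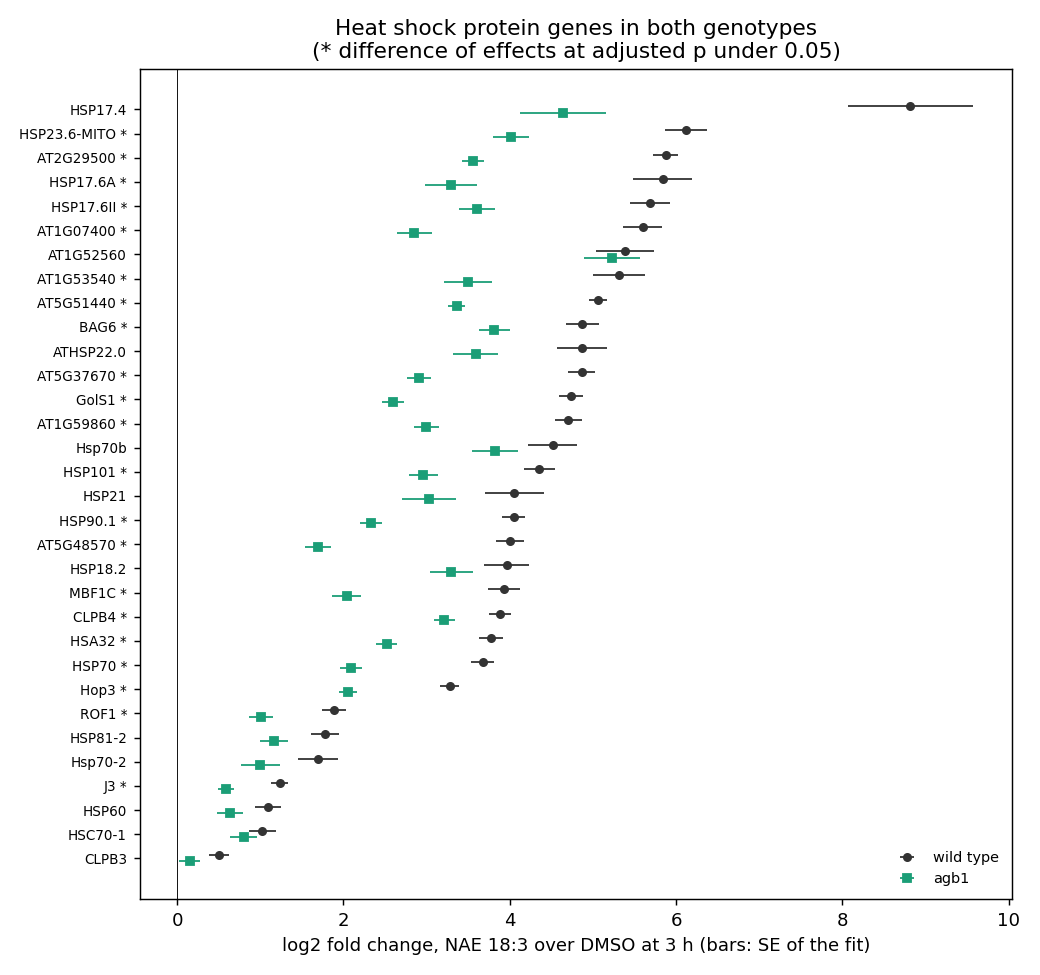
Rows are heat shock and chaperone genes, with the log2 fold change of NAE 18:3 over DMSO at 3 h in WT (circles) and agb1 (squares), bars giving the SE of the fit and a star a difference called at adjusted p under 0.05. The agb1 square lies to the left of the WT circle in every row, 21 of 32 with a star, and the value of HSP17.4, at 0 in WT under DMSO, is no bound.

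The named loci ABCG11, ABI1, AGG2, APG8A, AT2G47950, AT3G01830, ATERDJ3A, BOA, CAB1, CAT2, CLPB3, CPD, CRK42, CSD1, CT-BMY, DELTA-TIP, DREB2A, EBF2, FER1, FLS2, FRK1, GASA6, GH3.9, GLDP1, GSTF12, GolS1, HSF3, HSP101, JAZ10, KAT5, LHCB2.3, LOX1, MBF1C, MPK3, NAC13, NPR1, PCL1, POR C, PRK, PSAH2, PUB23, PYK10, TCH3, TPS5, TT4, WRKY33 and XLG1 overlap another locus on the opposite strand. The strand setting of the counting is not given in the sources used here, so their reads and those of the neighbour cannot be told apart.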

How the data were processed

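Poly(A) RNA of whole seedlings was sequenced as paired reads from a stranded library, per the labels' protocols. Per the submitters' processing notes the authors used STAR, DESeq2 and TAIR10, with no versions given, and deposited raw counts per locus in 1 table a time point. The counting tool and its strand setting are not given in the sources used here. From these counts, loci were kept by filterByExpr (minimum count 10, minimum total count 15), scaled by TMM and tested with edgeR 4.0.16 (R 4.3.3), by its quasi-likelihood F test with robust dispersions, in 1 fit of the 12 libraries of the 3 h table. The same model was used to test against a 2-fold change. The change from 1 h to 3 h came from a fit of all 24 libraries. P-values were adjusted by Benjamini-Hochberg over all loci tested, with a threshold of 0.05. The procedure was tested on simulated data in which few loci changed. That test does not bear on the scaling where, as here, a majority of loci is called. DESeq2 1.42.0 was an alternative.

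Levels are TMM-scaled CPM, computed here from the deposited counts. CPM are not corrected for length, so levels are compared within a locus only. Names and promoter windows are RefSeq's on TAIR10.1, which matched 32548 of 32833 loci, and no coordinate was converted. Genes were named by a rule: the 12 largest rises and falls among called loci with a mean of at least 5 CPM and no overlap, the 5 largest gains and losses in CPM, and the 3 called members of each list with the smallest p. AGB1 and GPA1 were always named. For the change from 1 h to 3 h and the difference to agb1, the 4 largest and 4 smallest called values were named. These were taken among loci with a mean of at least 5 CPM over the libraries compared. Other list members named in the text, and the genes whose promoters are shown, were chosen after their values were seen. The members and lists were chosen with earlier results of these data known, and 35 list entries whose product belied the name were left out after values were seen. Replicate numbers did not pair the samples.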

Additional observations from a re-analysis of the deposited data

Results flagged for a closer look

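The NAE 18:3 effect in WT differed between 1 h and 3 h at 10422 loci and between agb1 and WT at 3 h at 613 loci, by edgeR's test of the difference itself. The most positive and most negative values below are among called loci with a mean of at least 5 CPM over the libraries compared.

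The 4 most positive changes from 1 h to 3 h (log2) were at AT3G41768 (7.30, SE 1.70, adjusted p = 0.00196), ATCG00020 (6.42, SE 1.65, adjusted p = 0.00411), AT2G23110 (6.29, SE 0.70, adjusted p = 2.55e-07) and ATCG00730 (6.11, SE 1.6, adjusted p = 0.00448). The 4 most negative were at AT1G60590 (-8.86, SE 0.80, adjusted p = 4.56e-08), AT5G20790 (-6.18, SE 0.55, adjusted p = 3.51e-08), MGDC (-5.90, SE 0.80, adjusted p = 6.48e-06) and P1R1 (-5.46, SE 0.45, adjusted p = 3.37e-09). Without WT DMSO replicate 2 at 1 h, the library with 5.29% ribosomal RNA and 1.18% plastid-encoded counts, the values of AT3G41768, ATCG00020 and ATCG00730 were 2.18, 1.55 and 1.85, and all 3 were still called. AT2G23110, AT1G60590, AT5G20790, MGDC and P1R1 moved little, to between -8.94 and 6.36.

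For the difference agb1 minus WT at 3 h, the ranking left out loci under that mean level, HPL1 among them. The 4 most positive values were at AT1G60590 (4.57, SE 1.04, adjusted p = 0.035), AT3G28220 (2.91, SE 0.44, adjusted p = 0.00597), AT2G10940 (2.89, SE 0.38, adjusted p = 0.00307) and AT1G67750 (2.62, SE 0.40, adjusted p = 0.00522). The 4 most negative were at AT5G04380 (-3.65, SE 0.40, adjusted p = 0.000839), AT1G07400 (-2.74, SE 0.28, adjusted p = 0.00061), PROPEP3 (-2.55, SE 0.53, adjusted p = 0.0262) and HSP17.6A (-2.54, SE 0.42, adjusted p = 0.00853). AGB1 (-0.75, SE 0.17, adjusted p = 0.0289) and GPA1, listed as GP ALPHA 1 (-0.85, SE 0.16, adjusted p = 0.0158), also differed. AT1G07400 and AT1G59860 are close copies, so reads may have been split between them. AT1G60590 lost this call without any 1 of 7 libraries (WT DMSO 2, WT NAE 2 or 3, agb1 DMSO 3, or agb1 NAE 1, 2 or 3), with values of 4.101 to 4.75 and adjusted p of 0.0577 to 0.113, and PROPEP3 without WT DMSO 2, WT NAE 2, or agb1 NAE 1 or 2, as given above for it, AGB1 and GPA1. These p-values are edgeR's.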

How the results depend on the processing

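The number of loci called in WT at 3 h, 12094, ranged from 11223 (only the 6 WT libraries) to 12807 (total counts) over the other settings, and was 12403 by DESeq2. Leaving out 1 library gave 10840 to 12293. The 3393 loci beyond 2-fold ranged from 2667 by DESeq2 to 3700 with total counts, and from 2966 to 3552 with 1 library left out. The 10422 changes from 1 h to 3 h ranged from 9346 to 10377 with 1 library left out. No gene named by the rule changed direction, in the effect it was named for, under the settings run. The other genes and effects named in the text were not followed across the settings. The medians of 11 lists changed sign under some setting. With total counts they were the 26S proteasome (-0.03), the unfolded protein response (-0.07), abscisic acid and drought response (-0.15), lipid reserve use (-0.02), peroxins (-0.22), XTH enzymes (-0.21), root markers (-0.06) and cytosolic ribosomal proteins (-0.17). At a mean of at least 1 CPM they were SAUR genes (0.14), MYB factors (0.11) and XTH enzymes (-0.21), and the median of N-acylethanolamine and oxylipin genes turned to 0.002 without WT NAE replicate 3. Leaving out single libraries also turned the medians of 6 of the other lists named here, root markers among them (-0.12 without WT DMSO replicate 3). With total counts and no scaling factor, rises were 34.1% of the calls against 50.3%, 40.2% against 55.2% beyond 2-fold, and 31% against 52.5% for the change with time. The 613 differences between agb1 and WT ranged from 189 to 1394 with 1 library left out. Their majority turned from lower (272 higher, 341 lower) to higher under several settings, with 51.4% higher by RLE and 60.7% without agb1 DMSO replicate 1, against 44.4%. The cause was not tested.

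With the replicate number as a block, 11861, 3365, 564 and 10223 loci were called for these 4 counts. Samples of the same number did not deviate together (correlations -0.035, -0.055 and -0.13), so the block does not describe a pairing. It changed 1 call named here with time, ATCG00020 (4.94, adjusted p = 0.0501). With the exon length trend of each library removed, chosen after seeing the data, the first 3 counts were 12188, 3346 and 600. Among the genes named by the rule, 6 for the WT effect and 4 for the difference to agb1 (AGB1, GPA1, AT1G60590 and PROPEP3) lost their call under some setting. At these depths a log2 fold change had a median SE of 0.167 in WT and 0.231 for the difference to agb1.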
